A study of Tursiops truncatus with 8 samples.

Results

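The BPA dose series was 4 one-colour Agilent arrays of the 8 in the study. It comprised a slice of bottlenose dolphin (Tursiops truncatus) skin kept with ethanol, the carrier of BPA, and 3 slices kept with BPA at titled doses of 0.1, 1 and 100. There was 1 array per condition, and all 4 lay on one slide and were scanned together. Per the labels, each slice measured about 2 mm in thickness and took in dermis as well as epidermis. The skin was that of a stranded female, and incubation lasted 24 h at 24 to 28 °C. The age of the animal was not given in the sources used here, and nothing in the labels said that the slices came from separate animals. Titles and treatment protocol disagree on the unit (mg/ml against µg/ml), and the protocol lists 0.1 and 1 but no 100, so a dose serves below only to name an array. The other 4 arrays, on another slide, held culture medium alone, methanol and 2 cultures with PFOA (perfluorooctanoic acid), titled 1 and 0.1, whose descriptions give these 2 doses the other way round. The question was how RNA levels in skin differ between a contaminant and its carrier.

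BPA (bisphenol A) is a monomer of polycarbonate plastics and epoxy resins that binds oestrogen receptors weakly and can act on other nuclear receptors. Skin is a barrier organ of layered keratinocytes over a dermis of fibroblasts and vessels, and a cultured slice keeps both layers without blood supply. An array of a whole slice measures the RNA of all its cells together, so fewer cells of a type and less RNA per cell cannot be told apart.

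A feature is one array probe, measured by its spots. Of 24418 features, 16909 had every spot well above background, as the scanner software called it, on all 4 arrays, and these are described. They comprised 15198 assembled contigs, 1662 single sequence reads, 39 probes named by GI number and 10 probes for named genes. The files do not pair contigs or reads with gene names, so most features can be given only by contig name. Of the described features, 13634 had 2 or more spots kept on every array and 3275 had 1. Values are log2 of the processed signal less the log2 of the 75th percentile of the array, averaged over spots, and a difference is a dose minus ethanol on this scale. All doses share the 1 ethanol array, so its own error enters every difference.

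The BPA 100 array was the dimmest and noisiest of the 4. Its 75th percentile of processed signal was 387, against 592 on ethanol, 704 on BPA 0.1 and 526 on BPA 1. The SD between spots of a feature was 0.23 log2 units on BPA 100, 0.15 on ethanol, 0.11 on BPA 0.1 and 0.15 on BPA 1. The first and second spots of a feature were at least 2-fold apart on one array in 0.594% of features on BPA 100 and in 0.176% to 0.323% on the other 3. The scanner software marked ethanol, BPA 1 and BPA 100 for evaluation, all for the coefficient of variation (CV) of spike-in spots. BPA 100 was also marked for the CV of non-control spots. The median CV of the signal was 12.3% on BPA 100, 6.55% on ethanol, 3.88% on BPA 0.1 and 5.27% on BPA 1. The part of this noise in the differences below was not tested except where spots are compared.

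More features stood at least 2-fold from ethanol on arrays of higher titled dose, and above ethanol more often than below it at doses 1 and 100. At BPA 0.1, 28 of 16909 features were at least 2-fold higher (0.166%) and 21 lower (0.124%). At BPA 1, 186 were higher (1.1%) and 23 lower (0.136%). At BPA 100, 481 were higher (2.84%) and 110 lower (0.651%). Few differences were large, with 3 features at least 4-fold higher at each dose and 2, 2 and 1 at least 4-fold lower at 0.1, 1 and 100. With 1 array per dose none of these differences has a replicate check.

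The widening held across all features and not only at the 2-fold line. The SD of the difference from ethanol over features was 0.27 log2 units at BPA 0.1, 0.39 at BPA 1 and 0.47 at BPA 100. The median difference was 0.0035, -0.022 and -0.00072 in the same order, so the arrays were centred alike. The steps between neighbouring arrays also differed in size, with SDs of 0.27 from ethanol to BPA 0.1, 0.28 from BPA 0.1 to BPA 1 and 0.38 from BPA 1 to BPA 100.

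Cultures without BPA or PFOA also differed from each other. Methanol against medium, on the other slide, gave 264 features at least 2-fold apart of 17882 well above background on both (1.48%), 13 higher and 251 lower. Ethanol against medium, which lie on different slides, gave 203 of 17592 (1.15%), 24 higher and 179 lower. Filtered in the same way, pair by pair, BPA 0.1 against ethanol gave 60 (0.338%), BPA 1 gave 228 (1.31%) and BPA 100 gave 600 (3.53%). By this share BPA 0.1 was below both unexposed pairs, BPA 1 lay between them, and BPA 100 was above both. The SD of the difference was 0.299 for methanol against medium and 0.374 for ethanol against medium. It was 0.278 at BPA 0.1, 0.392 at BPA 1 and 0.475 at BPA 100, so by SD BPA 1 was also above both.

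The split into higher and lower moved with the scaling. At BPA 0.1 it was 28 higher and 21 lower with the 75th percentile, but 17 and 28 with median scaling, 17 and 26 with quantile normalization and 19 and 29 with cyclic loess. At BPA 1 it was 114 and 36 with median scaling and 129 and 37 with quantile normalization. At BPA 100 it was 337 and 205 with median scaling. Higher features remained the more numerous at BPA 1 and BPA 100 under each of these scalings, whereas the direction at BPA 0.1 turned. Median scaling shifted the median difference of all features to -0.1 log2 units at BPA 1, so part of the change in the splits is this shift.

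**Figure D1:**
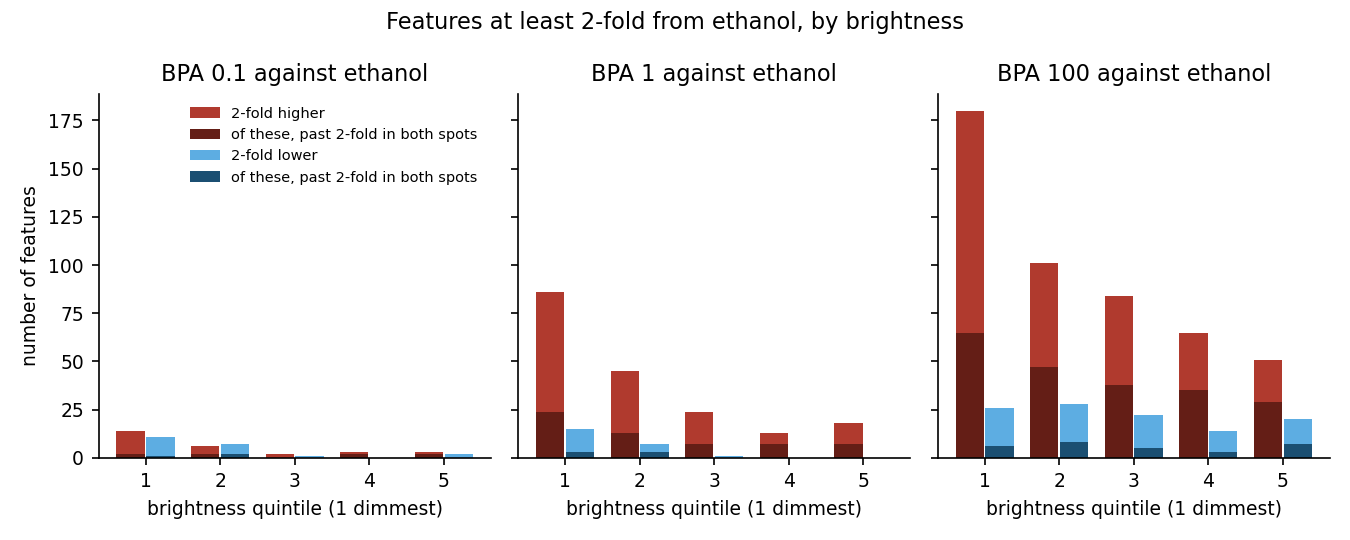
Number of features at least 2-fold higher (red) or lower (blue) than ethanol at each BPA dose, by quintile of mean signal over the 4 arrays. The darker part of each bar is the number past 2-fold in the first and in the second spot taken alone, which only features with 2 or more spots can reach. In the dimmest quintile 180 features were higher at BPA 100 and 86 at BPA 1, against 51 and 18 in the brightest.

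With the 75th percentile scaling, 2-fold features were most frequent among dim ones. Features were ranked by mean value over the 4 arrays and cut into quintiles, with median signals of 26.7, 90.1, 251, 684 and 2705 from dimmest to brightest. At BPA 100, 206 features of the dimmest quintile (6.09%) were at least 2-fold from ethanol, then 129, 106, 79 and 71 (2.1%) in the brightest. At BPA 1 the counts were 101 (2.99%), 52, 25, 13 and 18 (0.532%). At BPA 0.1 they were 25 (0.739%), 13, 3, 3 and 5 (0.148%). With this scaling BPA 100 had more 2-fold features than the lower doses in every quintile. Under normexp background correction, which started from the median spot signal and added an offset of 50 that by construction shrinks the folds of dim features, the order of the quintiles was turned. From dimmest to brightest, normexp gave 0, 11, 22, 32 and 41 features higher and 0, 1, 3, 11 and 40 lower at BPA 100. At BPA 1 it gave 0 in the dimmest quintile and 31 higher and 3 lower in the brightest, and at BPA 0.1 it gave 0, and 8 higher and 2 lower.

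The direction of the bulk of features also moved with brightness. In the dimmest quintile the median difference was 0.05, 0.13 and 0.19 log2 units at 0.1, 1 and 100, and in the brightest it was -0.035, -0.096 and -0.14. The share of features above ethanol at BPA 100 fell from 64.0% in the dimmest quintile to 37.8% in the brightest, and at BPA 1 from 61.2% to 37.0%. This tilt depended on the scaling. The median of the dimmest quintile less that of the brightest was 0.32 log2 units at BPA 100, but 0.10 with quantile normalization and 0.084 with cyclic loess, both of which take out differences that follow brightness, and 0.60 under normexp. At BPA 1 it was 0.23, against 0.061 with quantile normalization, 0.051 with cyclic loess and 0.26 under normexp. At BPA 0.1 it was 0.085, and it turned to -0.036 with cyclic loess and -0.10 under normexp background correction. The split of the brightest quintile at BPA 100 depended on the setting too. It was 51 higher and 20 lower with the 75th percentile, 91 and 12 with cyclic loess and 75 and 13 with quantile normalization, but 43 and 44 with median scaling and 41 and 40 under normexp.

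**Figure D2:**
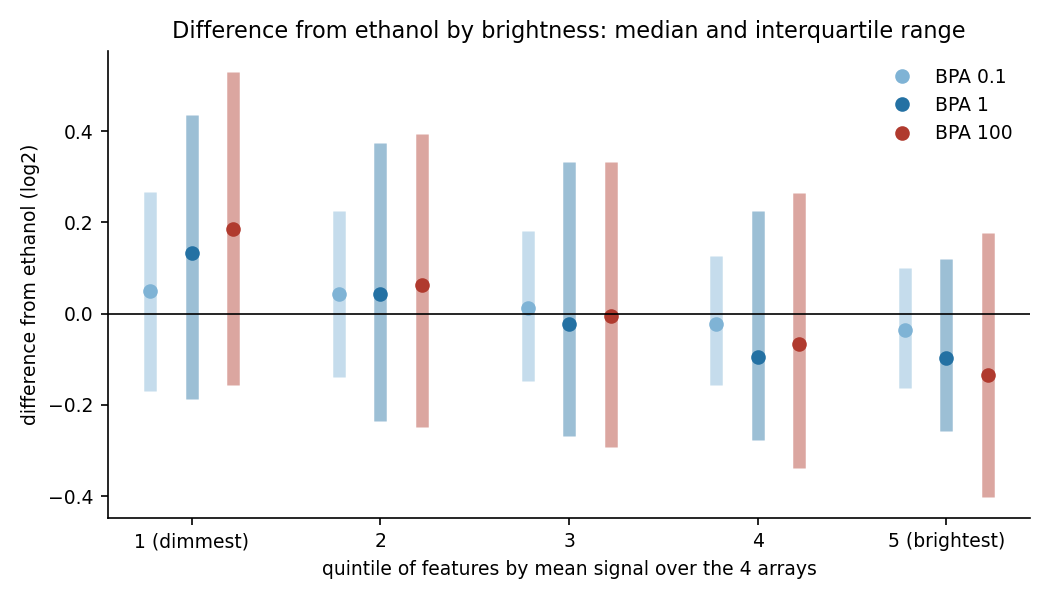
Difference from ethanol (log2) in each quintile of mean signal, with points at the median and bars from the lower to the upper quartile over features. Medians pass from above 0 in the dimmest quintile to below 0 in the brightest at all 3 doses, from 0.19 to -0.14 at BPA 100. The spread over features exceeds these shifts in every quintile.

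Duplicate spots gave a check of measurement error within an array, though spots of one slice are not replicates of a dose. Across the 13634 duplicated features, the difference from ethanol in the first spot correlated with that in the second with r = 0.68 at BPA 0.1, 0.77 at BPA 1 and 0.73 at BPA 100. The 2 spots pointed the same way in 79.0%, 83.3% and 78.7% of features. In the dimmest quintile r was 0.53, 0.62 and 0.58, in quintile 3 it was 0.78, 0.84 and 0.77, and in the brightest 0.73, 0.77 and 0.75. The correlation was thus lowest in the dimmest quintile at all 3 doses, but it did not keep rising up to the brightest.

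Of duplicated features at least 2-fold from ethanol on average, nearly all had spots that did not overlap with the ethanol spots. At BPA 0.1 this held for all 16 higher and 10 lower features, at BPA 1 for 122 of 125 and 11 of 12, and at BPA 100 for 356 of 359 and 64 of 65. It is a weak demand, since spots were apart from ethanol in 67.3%, 76.1% and 70.6% of all duplicated features. A stricter demand, both spots past 2-fold in the same direction, was met by 11 of 26 at BPA 0.1 (42.3%), 64 of 137 at BPA 1 (46.7%) and 243 of 424 at BPA 100 (57.3%). Of these, 8, 58 and 214 were higher than ethanol and 3, 6 and 29 lower. The order of the doses and the excess of higher features at BPA 1 and BPA 100 were thus present when both spots had to pass. Opposite calls by the 2 spots were rare, with 1 feature at BPA 100 and 0 at the lower doses.

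**Figure D3:**
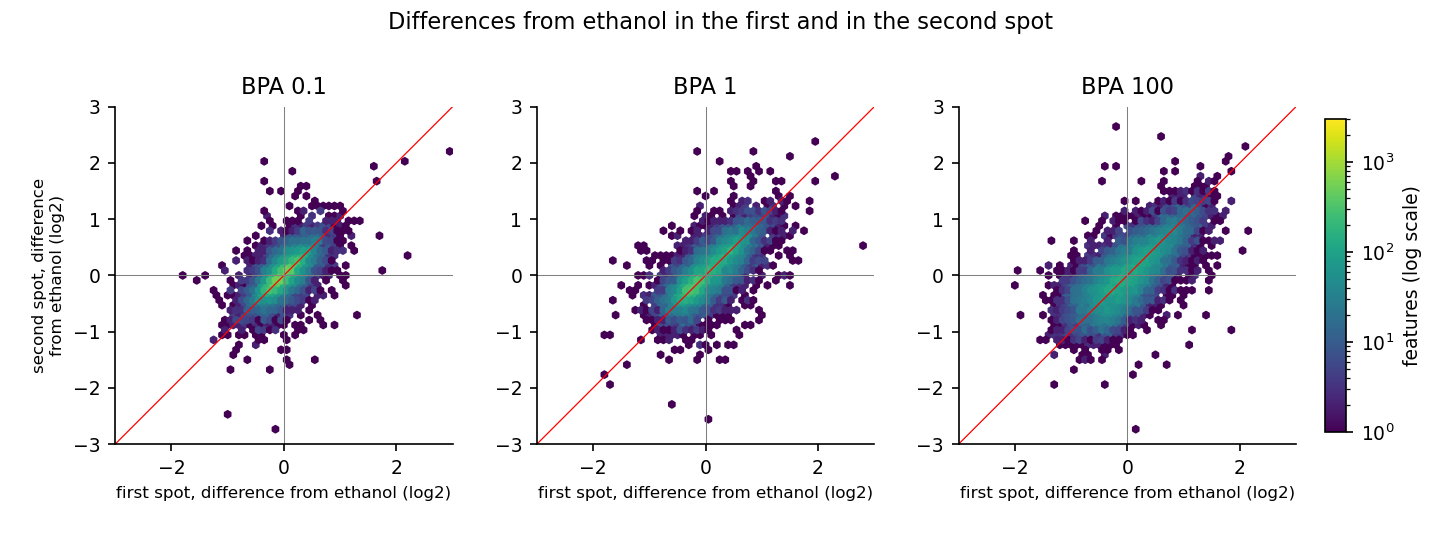
Difference from ethanol (log2) in the first spot of a feature against that in the second spot, for the 13634 features with 2 or more spots at each BPA dose, with colour for the number of features on a log scale. The red line marks equal values. Points lie along this line at all 3 doses (r = 0.68, 0.77 and 0.73), and the cloud is longest at BPA 100.

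Features whose spots agreed closely still differed at BPA 100. The duplicated features were cut into tertiles by the SD between spots, pooled over the 4 arrays, with median signals of 456, 294 and 124 from closest to widest. In the closest tertile 3 of 4545 features were at least 2-fold from ethanol at BPA 0.1 (0.066%), 17 at BPA 1 (0.374%) and 133 at BPA 100 (2.93%). In the widest tertile the counts were 16, 82 and 158. The share 2-fold apart thus depended strongly on spot agreement at BPA 0.1 and BPA 1, and little at BPA 100, where it was 2.93%, 2.93% and 3.48% from closest to widest. Features with 1 spot were 2-fold apart more often than duplicated ones, in 0.702%, 2.2% and 5.1% against 0.191%, 1.0% and 3.11% at 0.1, 1 and 100. This sets 1 spot against an average of spots. Read by the first spot alone, duplicated features gave 0.352%, 1.58% and 4.91%, above their averaged shares and below those of features with 1 spot. Features with 1 spot were also dimmer, with a median signal of 160 against 279. Within the dimmest quintile the shares were 1.45%, 3.80% and 7.27% for features with 1 spot against 0.482%, 2.69% and 5.67% for averaged duplicated ones.

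The shape over dose was described without a reference array. The highest of the 4 arrays was at least 2-fold above the lowest in 1077 features (6.37%), and the median feature spanned 1.41-fold. The widest gap between the 4 sorted values separated 1 array from the other 3 in 852 of the 1077 features and split them into pairs in 225. BPA 100 was the array apart in 589 (54.7%), high in 455 and low in 134. Ethanol was apart in 154, low in 125 and high in 29, BPA 1 in 69 and BPA 0.1 in 40. The most frequent division into pairs had ethanol and BPA 0.1 low and BPA 1 and BPA 100 high, in 170 features, and its opposite was seen in 13. The widest gap does not set a single high value apart from a graded rise: it was itself 2-fold or more in 33 of the 455 features with BPA 100 high, and features in rising order can fall in this class. Without the BPA 100 array 272 features kept a 2-fold range (1.61%), and without ethanol 626 (3.7%).

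Of the 24 possible orders, the most frequent was a fall through every step from ethanol to 100, in 2242 features (13.3%). The next was a rise through every step, in 1592 (9.42%). Among features with a 2-fold range this was turned, with 295 rising and 81 falling. Most features of either order had less than a 2-fold range. A fall was more frequent among bright features and a rise among dim ones. A fall made up 6.18% of the dimmest quintile and 20.3% of the brightest, whereas a rise made up 12.3% and 4.79%. The falling features with a 2-fold range were distributed otherwise, at 20, 21, 20, 12 and 8 from dimmest to brightest. Median scaling gave 1221 rising and 2891 falling features, quantile normalization 1394 and 2283, and cyclic loess 1511 and 2111. Under normexp 1913 features were in rising and 1580 in falling order, so which of these orders was the more frequent changed under that setting. Normexp differs in its input signal and offset as well as in the background correction.

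**Figure D4:**
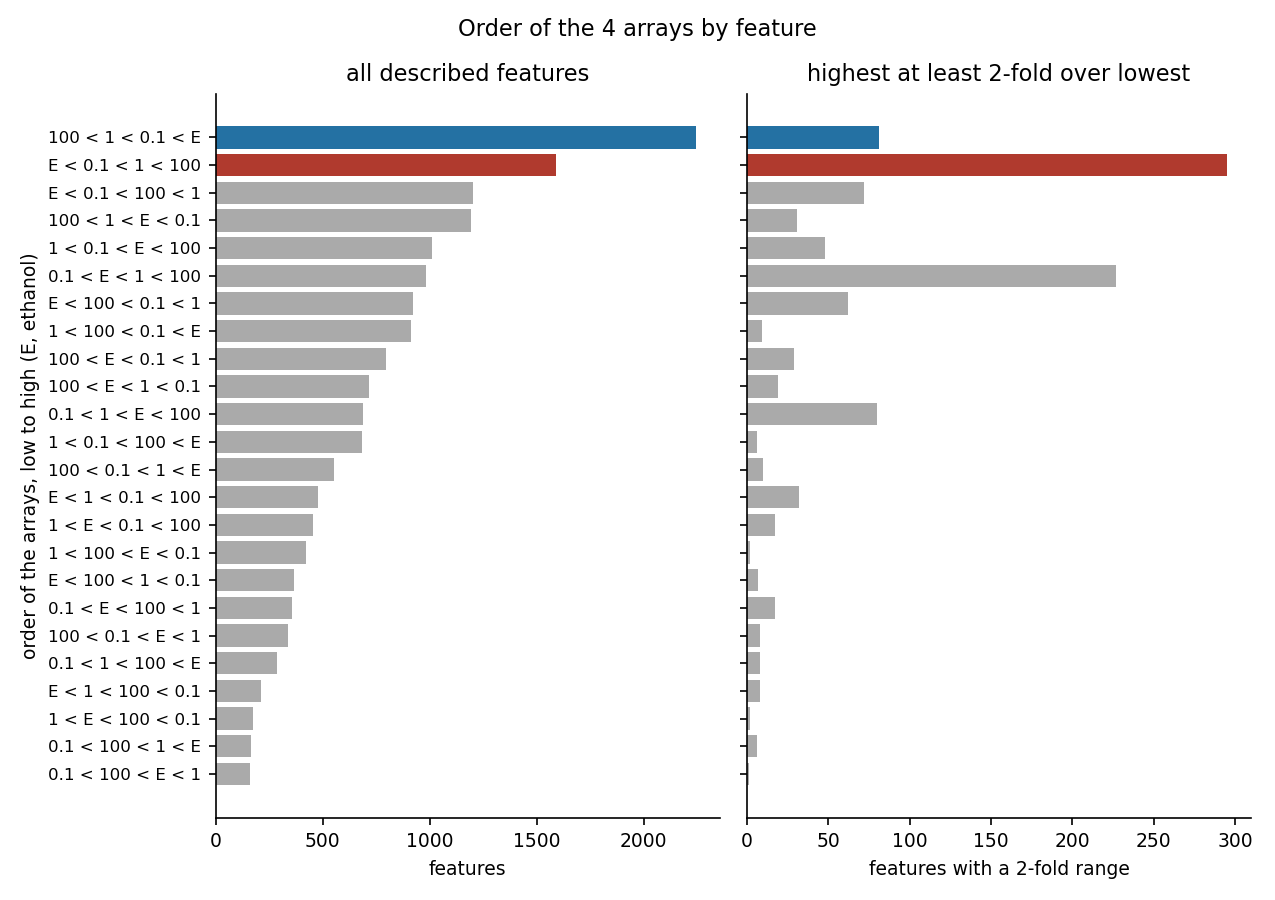
Number of described features in each of the 24 orders of the 4 arrays from low to high (E, ethanol), for all features on the left and for those whose highest array was at least 2-fold above the lowest on the right. The rise through every step is in red and the fall in blue. The fall leads among all features (2242 against 1592) and the rise among those with a 2-fold range (295 against 81).

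The first and second spots gave the same order of arrays in 4177 of 13634 duplicated features (30.6%). Among these, 742 were in falling and 656 in rising order, and of those with a 2-fold range, 36 were in falling and 169 in rising order. The following contigs are the widest of each shape among features with that shape in both spots, or the farthest from ethanol at a dose. They were picked by size, so their values describe them and support nothing further. Slopes are limma estimates per step from ethanol to 0.1, 1 and 100, each with its SE.

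Contig-c12185-1 read higher at every step. Its signal in the first and second spots was 151 and 164 on ethanol, 233 and 271 at BPA 0.1, 280 and 320 at BPA 1 and 353 and 390 at BPA 100. After scaling it was 1.34-fold, 2.14-fold and 3.62-fold of ethanol, with no overlap of spots between any arrays (slope 0.62 ± 0.07 log2 units per step, limma adjusted p = 0.111). Contig-c20615-1, a bright feature, likewise read 1.45-fold, 2.18-fold and 3.25-fold (slope 0.57 ± 0.07, adjusted p = 0.111). Contig-c4526-1 reached 3.84-fold at BPA 100 but was dim, and its spots at BPA 0.1 read 41.3 and 18.7, so its position at that dose is uncertain.

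Contig-c8242-1 read lower at every step. Its spots read 3283 and 3180 on ethanol, 2984 and 2903 at BPA 0.1, 1917 and 1896 at BPA 1 and 887 and 767 at BPA 100. After scaling it was 0.766-fold, 0.664-fold and 0.391-fold of ethanol (slope -0.43 ± 0.08, adjusted p = 0.111). Contig-c10216-1 and Contig-c6942-1 were at 0.388-fold and 0.414-fold at BPA 100. Both were dimmer, with mean signals of 26.3 and 16.8 at that dose. The spots of Contig-c6942-1 disagreed in size, with 79.1 and 49.0 on ethanol and differences of -1.88 and -0.66 log2 units at BPA 100.

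Contig-c7480-1 was the farthest above ethanol at BPA 100 among duplicated features. It stepped up between BPA 0.1 and BPA 1 with little difference below that. It read 0.88-fold, 2.35-fold and 4.61-fold of ethanol, from spots of 1655 and 1751 on ethanol, 1722 and 1842 at BPA 0.1, 3622 and 3484 at BPA 1 and 4762 and 5514 at BPA 100. Contig-c18949-1, also bright, had the same shape at 0.922-fold, 2.0-fold and 3.06-fold. Contig-c4362-1 went from 0.853-fold to 3.48-fold and 3.72-fold, but its ethanol spots were 11.8 and 11.2, near the lower end of what was measured. In the opposite direction, Contig-c9684-1 was 1.26-fold of ethanol at BPA 0.1 and 0.603-fold and 0.439-fold at BPA 1 and BPA 100, and Contig-c17479-1 was 0.864-fold, 0.563-fold and 0.433-fold.

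Some features stood apart at BPA 100 alone. Contig-c19534-1 was 0.768-fold, 1.32-fold and 2.75-fold of ethanol, with spots of 37.7 and 36.2 on ethanol and 65.4 and 67.3 at BPA 100. Contig-c18473-1 was 1.4-fold, 1.09-fold and 0.458-fold, from 541 and 496 on ethanol to 198 and 121 at BPA 100. Contig-c13249-1 read 0.813-fold, 0.898-fold and 2.67-fold, but its BPA 100 spots were 35.6 and 21.2. Contig-c7328-1 was 0.971-fold, 0.739-fold and 0.395-fold, with ethanol spots of 197 and 198 and BPA 100 spots of 53.2 and 48.8.

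Other features did not follow dose. Contig-c350-1 was highest at BPA 0.1, at 6.03-fold of ethanol, then 4.1-fold and 1.78-fold at BPA 1 and BPA 100. Its spots read 11.8 and 18.2 on ethanol, 112 and 98.6 at BPA 0.1, 52.8 and 54.1 at BPA 1 and 16.9 and 17.2 at BPA 100, so the ethanol spots differed but lay far below those at 0.1. Contig-c12377-1 had the same shape at 4.24-fold, 2.47-fold and 1.3-fold. Contig-c2653-1 was lowest at BPA 1, at 0.569-fold, 0.289-fold and 0.644-fold of ethanol. Contig-c375-1 and Contig-c15002-1 were low at BPA 1 alone, at 0.277-fold and 0.35-fold of ethanol.

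**Figure D5:**
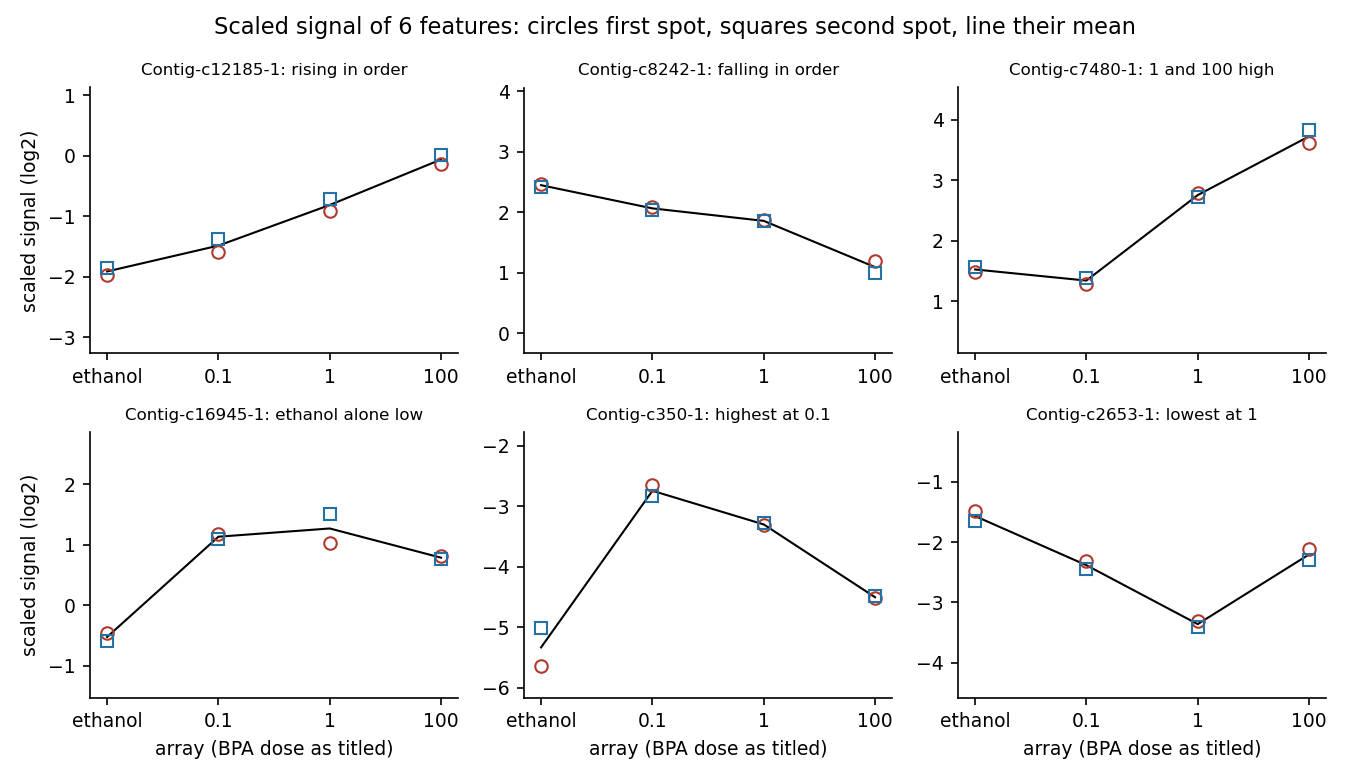
Scaled signal (log2, relative to the 75th percentile of each array) of 6 contigs on the 4 arrays of the series, with the first spot as circles, the second as squares and their mean as a line, on axes of equal span. At BPA 100 Contig-c12185-1 is at 3.62-fold of ethanol and Contig-c8242-1 at 0.391-fold, and Contig-c350-1 is highest at BPA 0.1, at 6.03-fold. The spots of an array lie farthest apart for Contig-c350-1 on ethanol (11.8 and 18.2).

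Several of the lowest values relative to ethanol rested on 1 ethanol spot. Contig-c697-1 was 0.368-fold, 0.423-fold and 0.409-fold of ethanol, but its ethanol spots read 27.5 and 171, against 17.0 to 30.4 over all BPA spots. Contig-c15646-1 had ethanol spots of 15.8 and 63.9 and BPA spots of 8.99 to 17.0, and was 0.303-fold at BPA 0.1. Contig-c17259-1, by contrast, had ethanol spots of 189 and 242 and was 0.431-fold, 0.589-fold and 0.329-fold, with every BPA spot at or below 127. Contig-c20705-1 and Contig-c15174-1 also had ethanol alone high, and ended at 0.409-fold and 0.426-fold at BPA 100. Contig-c19206-1 was 0.409-fold of ethanol at BPA 0.1 and 1.36-fold at BPA 100, with ethanol spots of 3243 and 5164.

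Ethanol alone stood low for Contig-c16945-1, Contig-c245-1 and Contig-c2413-2. Contig-c245-1 was 3.37-fold, 4.55-fold and 2.96-fold of the ethanol value over the 3 doses, with ethanol spots of 38.5 and 32.1, and Contig-c2413-2 was 2.08-fold, 2.88-fold and 1.71-fold. For the 63 features with a 2-fold range and ethanol alone low in both spots, the median was 0.90 log2 units above ethanol on medium and 0.89 on methanol, beside 0.68, 1.03 and 1.02 at the 3 BPA doses. These features were chosen for a low ethanol value, so any other array tends to lie above it, and the values are a description only. Medium and methanol also lay on another slide, which cannot be told apart from the cultures.

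For the 169 features with a 2-fold range and rising order in both spots, medium lay 0.57 log2 units above ethanol in the median and methanol 0.58, beside 0.32, 0.67 and 1.16 at the 3 BPA doses. For the 234 features with BPA 100 alone high in both spots, medium and methanol lay at 0.26 and 0.11, beside 0.0034, 0.27 and 1.05. The same limit holds for both sets, since ethanol was chosen as the lowest array of the first and BPA 100 as the highest of the second.

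Features high at BPA 100 alone were also high on the other dim array of the study. PFOA titled 0.1, whose 75th percentile of 400 was the lowest of its slide, shares no array with the BPA series. It was marked by the scanner software for the same measures as BPA 100, with a median CV of 21.4%. It read above methanol in 89.7% of the 234 features and at least 2-fold above it in 44 (18.8%), against 50.9% and 3.51% of all described features. PFOA titled 1, with a 75th percentile of 658, was above methanol in 41.0% of the 234 and at least 2-fold above in 3. The trait was not particular to this set. PFOA titled 0.1 read above methanol in 79.3% of the 169 rising features and in 75.4% of the 57 with BPA 1 and BPA 100 high. For the 63 with ethanol alone low it was 44.4%. The 234 features were also dimmer than all features, with a median signal of 109 against 251, and the comparison was not matched for brightness. Of the 54 features with BPA 100 alone low, PFOA titled 0.1 read above methanol in 31.5% and at least 2-fold below it in 1 (1.85%), against 2.40% of all described features at least 2-fold below. The part of array brightness or RNA quality in the BPA 100 values was not tested.

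Features seen on only some of the arrays gave bounds. Of the features not described, 4359 had no spot well above background on any of the 4 arrays, and 2118 had spots that disagreed on at least 1 array. BPA 0.1, the brightest array, was alone in detecting 374. Ethanol alone detected 42, of which 18 were at least 2-fold above the mean of the BPA arrays, and 1 of those 18 had 2 spots. BPA 100 alone detected 27, of which 20 were at least 2-fold above the mean of the rest and 6 had 2 spots. The opposite pattern, every array but BPA 100, the dimmest, held 240 features. The mean of the other arrays was at least 2-fold above BPA 100 in 5 of these, and 0 of those had 2 spots. All 3 BPA arrays but not ethanol detected 52, with their mean at least 2-fold higher in 7. For a bound, the dim side was taken as its own value or, if higher, the weakest signal that the array detected. Each side was averaged over its arrays, so a single array can carry a bound. Among the 5, probe AM-28496 read 11.8 on ethanol, 10.9 at BPA 0.1 and 194 at BPA 1, against 5.34 at BPA 100. Probe AM-34816, which has 1 spot, gave the widest, at least 6.24-fold higher at BPA 100 than the mean of the dim side. Its signals were 1.68, 3.35 and 1.68 on ethanol, BPA 0.1 and BPA 1 and 27.7 at BPA 100.

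Of the 13 genes named on the array, by 20 probes, 7 were described, by 10 probes. None of the 10 probes was 2-fold from ethanol at any dose. Of all features, 0.166% were higher and 0.124% lower at BPA 0.1, 1.1% and 0.136% at BPA 1, and 2.84% and 0.651% at BPA 100, so a count of 0 among 10 probes says nothing particular about them. HIF1a and HIF2a, transcription factors that respond to low oxygen, read above ethanol at every dose in both spots. The HIF1a probe AM-15 read 106, 144, 127 and 101 on ethanol, BPA 0.1, 1 and 100, which after scaling was 1.14-fold, 1.34-fold and 1.45-fold of ethanol. Its second probe, AM-16, gave 1.35-fold, 1.63-fold and 1.56-fold, and HIF2a, read by AM-17, 1.17-fold, 1.8-fold and 1.53-fold. These probes were low on ethanol after scaling, and the 3 BPA arrays did not overlap with it. At a single dose that is common. Every spot lay above every ethanol spot in 4546, 4844 and 4903 of the 13634 duplicated features at 0.1, 1 and 100. It is thus not read as a result about these genes. No slope passed (HIF1a 0.18 ± 0.07 and 0.22 ± 0.08, limma adjusted p = 0.170 and 0.166, and HIF2a 0.25 ± 0.09, adjusted p = 0.170).

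The epithelial and secretory genes were dim, with mean signals of 8.90 to 65.2 on the 4 arrays. CC10, a secreted airway protein, had the widest difference among the described gene probes, 1.24-fold, 1.41-fold and 1.88-fold by probe AM-7. The BPA 1 spots of this probe read 14.7 and 8.40. MUC1, a cell surface mucin, was 1.2-fold, 1.15-fold and 1.37-fold by probe AM-19 and 0.889-fold, 0.768-fold and 1.16-fold by AM-18, so the probes disagreed at the lower doses. Probe AM-4 for AQP5, an aquaporin, gave 0.919-fold, 1.13-fold and 1.33-fold, and AM-5 gave 0.881-fold, 0.902-fold and 0.871-fold. AbcA3, which carries lipids into surfactant stores, read 1.27-fold and 1.36-fold at 0.1 and 1 and 0.774-fold at 100, with both spots agreeing in direction at each dose.

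SFTPC, a surfactant protein, shows what the spots add. Its mean was 0.96-fold, 1.03-fold and 1.09-fold of ethanol, but its first spot gave -0.47, -0.75 and -0.51 log2 units and its second 0.35, 0.84 and 0.77, since the ethanol spots read 39.6 and 17.5. Of the 10 probes, 6, 6 and 7 were above ethanol in both spots at 0.1, 1 and 100, and 3, 1 and 2 were below in both. By the average of the spots 6, 8 and 8 were above, against 50.5%, 48.0% and 49.9% of all described features. All 10 lay in the 2 dimmest quintiles. There the shares above ethanol were 55.5%, 61.2% and 64.0% in the dimmest and 56.7%, 53.4% and 55.1% in the next. The counts are therefore not read as a result about these genes. No fold is given for SFTPB, SFTPA1, PDPN, NKX2-1, FOXF1 or CDH5, since on at least 1 of the 4 arrays a spot failed the background call. The other CC10 probe, AM-6, and the other AbcA3 probes, AM-2 and AM-3, were left out for the same reason. CC10 and AbcA3 thus rest on 1 probe each. No marker of keratinocytes, melanocytes, fibroblasts, leukocytes or adipocytes and no gene of the oestrogen or xenobiotic response lists is named on the array, so neither the makeup of the slices nor these pathways could be read.

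A straight line over the 4 arrays was tested with limma, with the scatter around the line as error. It passed 0 of 16909 features (0%) at an adjusted p of 0.05, with a smallest adjusted p of 0.111. At an unadjusted p under 0.05 there were 4018 features (23.8%), 2193 rising and 1825 falling. Features of one array share its error, so this share is not a count of independent results. The error has 2 degrees of freedom, and it measures only the scatter of 4 slices, which may be technical. The count changed with the arrays in the fit, with 181 features passing without ethanol, 8 without BPA 0.1, and 0 without BPA 1 or BPA 100. Under normexp 590 passed, 406 rising and 184 falling.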

How the data were processed

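RNA was labelled with Cy3 from 0.5 µg per slice, per the labels' protocols. The deposited spot values are intensities that the authors obtained with Agilent Feature Extraction 10.7.3.1, per the file headers. They are linear, corrected for background and spatial trend within an array, and carry no normalization between arrays. The authors' deposited value table holds the same intensity multiplied by 1000000 (log2 ratio 19.92 to 19.94 on every array). Its column medians divided by 1000000 were 85.1, 105, 80.6 and 59.2 for ethanol and BPA 0.1, 1 and 100.

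Control spots and 2 to 12 spots per array marked as outliers were left out, and no spot was saturated. Features required every kept spot well above background on all 4 arrays. Values were regressed on step number using R 4.3.3 and limma 3.58.1 (lmFit, eBayes), with Benjamini-Hochberg adjustment. On data simulated for 16909 features with independent noise it recovered 6, 45, 50 and 50 of 50 changes of 2-fold, 4-fold, 8-fold and 16-fold over the 3 steps, with 6 false calls. The number of arrays limits the precision. Contigs were named by a fixed rule: the 4 highest and 4 lowest against ethanol at each dose with no spot overlap, and the 3 widest of each shape held in both spots. AM-34816, AM-28496 and contigs in the closing section outside the rule were chosen after their values were seen. Members and gene lists were chosen with earlier results of these data known. Of 55 symbols in 10 lists, 8 are named on the array: CDH5 for endothelium, HIF1a for hypoxia and 6 for lung epithelium, of which AQP5 and SFTPC were described. Of the 13 gene names, 9 matched the reference gene table (mTurTru1.mat.Y).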

Additional observations from a re-analysis of the deposited data

How the results depend on the processing

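No paired analysis was possible because each condition has 1 array and the labels give no replicate numbers. Normexp used the median spot signal, since the files used here hold no mean signal. Under normexp the features 2-fold from ethanol numbered 15, 75 and 161 at BPA 0.1, 1 and 100, and those with a 2-fold range 331. With no filter on dim probes the counts were 1040, 1217 and 1790, and 5509 for the range. The second spot alone gave 76 at BPA 0.1. Other scalings, a looser filter, outlier spots kept and the value table kept these counts within 1.5 times. The first spot alone gave 48, 216 and 670, and 1157 for the range, but only the 13634 duplicated features enter it. Averaged over spots, the same features gave 26, 137 and 424, and 743 for the range, so reading 1 spot gave higher counts. The share of 2-fold features above ethanol at BPA 0.1 turned from 57.1% to 37.8% with median scaling, 39.5% with quantile normalization, 39.6% with cyclic loess and 44.3% with no filter. The tilt with brightness at BPA 0.1 turned to -0.036 log2 units with cyclic loess and -0.10 under normexp. Leaving out each array in turn, chosen after the data were seen, gave 272 to 867 features with a 2-fold range. The orders of the remaining 3 arrays, of which there are fewer, held 3267 to 4512 rising and 4045 to 4848 falling features. The trend passed 590 features under normexp, 1637 with log10 of dose over the 3 BPA arrays, and 0 to 181 without each array. The log10 fit has 1 degree of freedom and an infinite prior, so it gave all features one variance and its calls do not rest on the spread of each. The trend passed 0 features under the other settings, including all 8 arrays. The cause of the other changes was not tested. Dim signal limits what can be said: in the dimmest quintile the SD between spots was 0.30 log2 units on BPA 100 and 0.24 on ethanol.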

Other observations

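Some features low at BPA 1 were also low on methanol, a culture on the other slide that shares no array with the BPA series. Of the 23 features at least 2-fold below ethanol at BPA 1, 6 (26.1%) were at least 2-fold lower on methanol than on medium, against 1.51% of all described features. The count was 2 of 21 (9.52%) for features lower at BPA 0.1, 2 of 28 (7.14%) for those higher at BPA 0.1, 5 of 186 (2.69%) for those higher at BPA 1, 18 of 481 (3.74%) for those higher at BPA 100 and 2 of 110 (1.82%) for those lower at BPA 100. This pattern was noticed in the data and was not tested.

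Contig-c375-1 read 104 on medium and 7.29 on methanol, where it was not well above background, and was 0.862-fold, 0.277-fold and 0.939-fold of the ethanol value over BPA 0.1, 1 and 100. Contig-c15002-1 read 108 on medium and 14.4 on methanol, and was 0.884-fold, 0.35-fold and 1.45-fold of ethanol. Contig-c2653-1 read 193 on medium and 44.2 on methanol, and was 0.569-fold, 0.289-fold and 0.644-fold. Contig-c9174-1 read 53.9 on medium and 2.03 on methanol, where it was not well above background, and was 0.894-fold, 0.364-fold and 2.13-fold. Contig-c5284-3 differed by -2.35 log2 units between methanol and medium, and was 0.734-fold, 0.445-fold and 0.624-fold of ethanol. The sixth was the single read AM-30056, at 0.551-fold, 0.487-fold and 1.29-fold. On PFOA titled 1, the 5 contigs read 95.8, 91.2, 207, 49.0 and 71.3 in this order, and on PFOA titled 0.1 they read 7.11, 33.8, 120, 23.7 and 44.6. These are unscaled signals from arrays with 75th percentiles of 658 and 400, so lower readings on PFOA titled 0.1 are not by themselves lower levels. The files do not name these contigs, and with 1 slice per condition the difference has no replicate check.

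On the slide of the other 4 cultures, 1458 of 16579 features well above background there (8.79%) had a 2-fold range. PFOA titled 0.1 stood apart as high in 475 and as low in 383.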
